A study of Mus musculus with 2 samples.

Results

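Ribosomal protein genes encode the proteins of the cytosolic ribosome. The members described here were all gene columns whose names begin with Rps or Rpl, without the Rps6k kinase genes and without names marked as pseudogenes, and 86 of 32245 gene columns met this rule, the same 86 for both libraries. Of these, 77 belonged to the standard protein set of the ribosome, with 46 of the large (60S) and 31 of the small (40S) subunit. The other 9 members were the paralogs Rpl3l, Rpl7l1, Rpl10l, Rpl22l1, Rpl36al, Rpl39l, Rps27l and Rps27rt, and Rps19bp1, which encodes a protein that binds RPS19 and is no part of the ribosome. The standard protein encoded by Fau as a ubiquitin-like fusion goes by another name and was followed beside the members.

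Each ribosome holds 1 copy of most of these proteins, and their messengers are among the most abundant in any cell. In mammals most of these messengers begin with a cytosine and a run of pyrimidines, the terminal oligopyrimidine (TOP) tract, through which mTOR and LARP1 control their translation. In the growth plate, chondrocytes secrete large amounts of collagen and aggrecan, which calls for high protein synthesis. Erythroid precursors are also rich in ribosomal protein messengers, and defects of ribosomal proteins cause anemia in humans.

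Knee joint cells of females aged 1 month were profiled by droplet 3′ single-cell RNA sequencing, with 1 library per genotype, each pooled from 2 to 3 mice. The control library was made from Stat3fl/fl mice, whose Stat3 alleles are floxed and intact, and the mutant library from Acan-Cre+/Cre;Stat3fl/fl mice, which carry the same Stat3 alleles and 1 allele of Cre at the aggrecan gene. The study's strain was induced with tamoxifen, and Cre from Acan is active in cartilage cells. Other cell types of the mutant library carry the floxed alleles without being its intended target. Whether the alleles were recombined in those cell types was not measured, and the paper describes growth plate chondrocytes that become osteoprogenitors. Live cells negative for CD31, Ter119 and CD45 were sorted. Because each genotype is 1 library, the spread between mice was not measured, no test was made, and every value describes these libraries. Intervals are 95% intervals of the counting error alone.

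Control cells numbered 4903, at a median depth of 4344 estimated UMIs (unique molecular identifiers, each 1 captured messenger), and mutant cells 1340, at 3743. The 3′ chemistry captures 1 end of each molecule, so levels can be compared between genes without a correction for length. Levels are given as CPM, the estimated UMIs of a gene for every 1000000 UMIs summed over the cells named. Globin UMIs were present in 75.7% of control and 8.43% of mutant cells although the sort was against Ter119, and 14.2% and 36.7% of cells lay above 5% mitochondrial counts. The libraries shared 2 cell barcodes. In Sox9+Col2a1+ cells Stat3 itself was 143 CPM for control and 104 CPM for mutant cells, but 3′ reads do not show whether the floxed exons were lost.

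Cells were assigned to types by marker gates: a cell joined the gate with the most of its 6 markers detected, at least 3, and ties were left out. Sox9+Col2a1+ cells were those with both of these chondrocyte genes above 0 (1013 control and 335 mutant cells), a wider set than the cells the authors marked as selected. Of these, 87.6% of control and 77.0% of mutant cells also fell in the cartilage gate. The mutant cells included 5.37% in the osteoblast gate, against 0.395% of control cells. The genes that lead each gate over the rest of its library carried its own markers and included Col9a3 and Matn3 (cartilage), Bglap (osteoblast), Tnmd (tendon), Pi16 (fibroblast), Prg4 (synovial lining), Adipoq (marrow stromal), Rgs5 (mural) and Alas2 (erythroid). The names below mean cells that resemble these types by their markers.

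Runs of pyrimidines near the annotated start were more frequent in the standard members with a window than in other genes. A run counted here can lie anywhere in the window and need not be the TOP tract. In a window of 50 bases, 30 before and 20 from the annotated start on, a run of at least 7 pyrimidines (C or T on the transcribed strand, overlaps counted once, the other strand not searched) was present in 33 of the 57 standard members with a window (57.9%). The same held for 29.5% of 20201 other genes of the tables, and for 3 of 9 members outside the standard set. The windows of members with a high or low ratio in the results below, where the tables hold one, and of Rps6 and Rpl22 are shown with the longest run in capitals where it has at least 7 bases, from RefSeq on GRCm38.p6.
Rps18 (chr17:33955646-33955695, minus strand): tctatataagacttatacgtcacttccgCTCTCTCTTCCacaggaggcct
Rpl22l1 (chr3:28805478-28805527, plus strand): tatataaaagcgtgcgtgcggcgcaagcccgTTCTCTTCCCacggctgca
Rps2 (chr17:24720033-24720082, plus strand): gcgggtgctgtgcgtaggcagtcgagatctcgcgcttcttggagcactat
Rpl9 (chr5:65391412-65391461, minus strand): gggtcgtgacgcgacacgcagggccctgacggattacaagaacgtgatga
Rps3a1 (chr3:86142649-86142698, minus strand): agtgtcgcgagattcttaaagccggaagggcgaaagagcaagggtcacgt
Rpl13a (chr7:45128726-45128775, minus strand): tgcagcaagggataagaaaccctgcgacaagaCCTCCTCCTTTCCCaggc
Rpl31 (chr1:39367821-39367870, plus strand): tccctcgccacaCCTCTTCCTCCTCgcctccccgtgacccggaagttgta
Rps15 (chr10:80292401-80292450, plus strand): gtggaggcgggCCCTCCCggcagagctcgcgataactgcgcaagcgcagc
Rps6 (chr4:86857348-86857397, minus strand): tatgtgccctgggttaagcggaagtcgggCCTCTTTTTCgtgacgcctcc
Rpl22 (chr4:152325696-152325745, plus strand): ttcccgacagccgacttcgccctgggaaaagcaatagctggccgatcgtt
Rpl9, Rps2 and Rps3a1, all with a high ratio, hold no run of at least 7 bases. Rps18, Rpl22l1 and Rps6 hold the run at or beside the annotated start, whereas that of Rpl31 and Rps15 lies before it. A run of these letters is a description of the window and says nothing of where transcription began in these cells.

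In Sox9+Col2a1+ cells the members together made up 16.2% of all UMIs in the control (16.2 to 16.3, exact binomial interval) and 19.4% in the mutant library (19.4 to 19.5), 1.20-fold more. The interval reflects only the depth of 5416549 and 3076545 UMIs. Per cell, the share had a median of 14.97% in the control, with the 10th and 90th percentiles at 7.30% and 22.2%. In the mutant library the median was 17.8%, with the percentiles at 4.11% and 29.5%, so the mutant cells spread more widely at both ends and the cells of the libraries overlapped over most of their range. Large-subunit members of the standard set held 9.09% of UMIs in control and 10.5% in mutant cells, and small-subunit members 6.99% and 8.67%. The large-to-small ratio was therefore 1.30 and 1.22.

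The order of the cell types by ribosomal protein share was led by erythroid cells. Their 1475 control cells reached 29.4% of UMIs with a per-cell median of 29.7% and percentiles of 22.5% and 33.6%. Sox9+Col2a1+ cells followed at 16.2%, then osteoblast-like cells at 13.4% in the control. Fibroblast-like cells stood at 10.8% and tendon-like cells at 10.4%, and marrow stromal (9.21%), synovial lining (9.21%) and mural cells (9.02%) lay lowest and close together. In the mutant library Sox9+Col2a1+ cells were also above the other gates, but the fibroblast-like (14.8%) and tendon-like cells (13.9%) stood above the osteoblast-like cells (12.8%), the reverse of their order in the control. The erythroid gate held only 13 mutant cells and was not compared between genotypes. The 18 control cells of the muscle gate, too few for a comparison, stood at 23.6%.

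**Figure D1:**
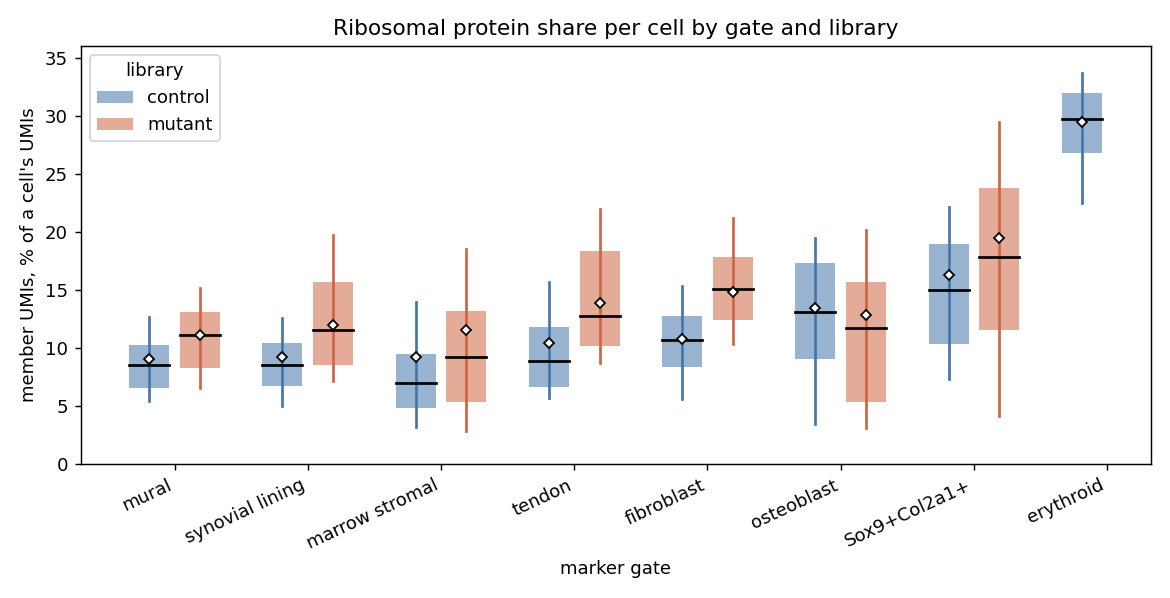
Ribosomal protein share of each cell's UMIs (%) by marker gate and library. Boxes span the 25th to 75th percentile of cells, lines the 10th to 90th, black bars are medians and white diamonds the share of summed UMIs. Erythroid cells of the control library lie highest, and the 25th percentile, median and 75th percentile of the mutant cells lie above those of the control cells in each compared gate except osteoblast.

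The higher share of the mutant library was not limited to chondrocytes. Fibroblast-like cells stood at 10.8% for control and 14.8% for mutant cells (1.37-fold), tendon-like cells at 10.4% and 13.9% (1.33-fold) and synovial lining cells at 9.21% and 11.9% (1.30-fold). Marrow stromal cells stood at 9.21% and 11.5% (1.25-fold) and mural cells at 9.02% and 11.1% (1.23-fold). Osteoblast-like cells did not share this direction, at 13.4% in control and 12.8% in mutant cells. Over all cells the direction was the opposite, 21.3% in control and 15.6% in mutant cells, and the erythroid cells made up 1475 of 4903 control but 13 of 1340 mutant cells.

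Depth moved with this difference. The median depth of Sox9+Col2a1+ cells was 4975 UMIs for control and 8521 for mutant cells, and within each library deeper cells held a larger ribosomal protein share. Up to 2000 UMIs the share was 8.45% for 102 control and 12.7% for 33 mutant cells. From 2000 to 5000 UMIs the share was 13.8% in the control (406 cells) and 14.2% in the mutant library (55 cells). From 5000 to 10000 UMIs it was 17.1% (438 cells) and 18.1% (118 cells), and above 10000 UMIs 18.8% (67 cells) and 20.7% (129 cells). In these 3 upper ranges the summed shares thus differed by less than over all Sox9+Col2a1+ cells. The median per-cell share was lower in mutant cells in every range but the deepest. Up to 2000 UMIs it was 7.13% in control and 4.23% in mutant cells, and from 2000 to 5000 UMIs 12.8% and 12.3%. From 5000 to 10000 UMIs it was 17.2% and 16.6%, and above 10000 UMIs 18.4% and 20.6%. The part of depth in the difference was not tested. Over the whole range of 2000 to 10000 UMIs the shares were 16.0% and 17.4%, a 1.09-fold difference.

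**Figure D2:**
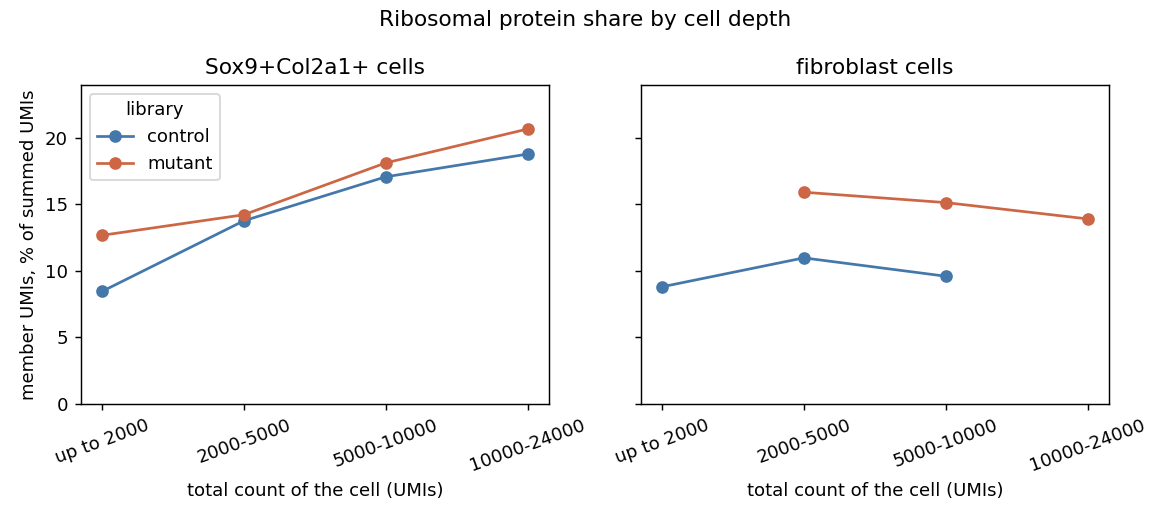
Ribosomal protein share (% of summed UMIs) of cells in ranges of their total count, by library, for Sox9+Col2a1+ and fibroblast-like cells; ranges with under 20 cells are left out. In Sox9+Col2a1+ cells the lines rise with depth and lie close together above 2000 UMIs, while in fibroblast-like cells the mutant line lies above the control line in both shared ranges.

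In fibroblast-like cells the difference was as large within a depth range: 10.98% in control and 15.9% in mutant cells from 2000 to 5000 UMIs, and 9.60% and 15.1% from 5000 to 10000 UMIs. The mutant share of these cells did not rise with depth. Osteoblast-like cells from 2000 to 10000 UMIs differed further in the other direction, 13.7% in control and 10.3% in mutant cells.

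Mitochondrial counts and globin also moved with the groups. Sox9+Col2a1+ cells above 5% mitochondrial counts numbered 7.40% of control and 20.9% of mutant cells, and their ribosomal protein share was lower, 12.0% and 14.5%. Among cells up to 5%, the shares were 16.4% and 20.1%. Globin UMIs were found in 50.5% of control and 0.896% of mutant Sox9+Col2a1+ cells. Without those cells, the shares were 16.6% and 19.4%, close to those of all the cells. The cells without globin were cell for cell those that the authors marked as selected, 501 control and 332 mutant cells. In the osteoblast gate the direction turned with the filter, from 13.8% to 14.4% among cells up to 5% mitochondrial counts, and the shares were 12.7% and 12.8% among cells without globin.

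The deposited table also gives a percent of ribosomal reads per cell. That column equalled the sum of 84 genes in every cell, within 0.000287 percentage points. These were 82 of the members and genes outside the name rule such as Fau, so it left out Rps3a1, Rps27rt and Rps19bp1. Rpl10l had no UMI in any cell, so these values cannot show whether the column holds it. Its mean over Sox9+Col2a1+ cells was 15.02% in control and 17.9% in mutant cells. The sum over the members differed from the column by at most 1.90 percentage points in any cell. Of the members it leaves out, Rps3a1, a 40S protein gene, was the most abundant, at 1833 CPM in control and 3394 CPM in mutant Sox9+Col2a1+ cells.

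Within Sox9+Col2a1+ cells the standard members spanned less than 1 order of magnitude, with minima of 641 (control) and 736 CPM (mutant) and medians of 1845 and 2328 CPM. Of the 100 most abundant genes of these cells, 52 in control and 57 in mutant cells were members. Among the most abundant in the control were Rpl41 (5220 CPM), Rps29 (5060), Rplp1 (4911) and Rps12 (4254). RPL41 is the smallest protein of the ribosome, and RPLP1 belongs to the stalk that recruits elongation factors. The least abundant standard members were Rpl7a (641 CPM), Rpl9 (713), Rpl27 (853), Rpl3 (880) and Rpl29 (881). RPL3 lies close to the peptidyl transferase center. In the mutant library these 5 stood at 736, 2134, 975, 1523 and 1119 CPM, so Rpl9 left the low end of the range.

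Members mostly stood higher in the mutant library, against the direction of genes as a whole. Of the 84 members with a mean of at least 10 CPM, 66 were higher in mutant Sox9+Col2a1+ cells, whereas 35.2% of all 7682 genes at that level were. The median log2 ratio of mutant to control, with 1 CPM added to both, was 0.27 over the members and -0.20 over all genes, so that relative to all genes the members stood 0.48 higher. The middle 50% of the members lay between 0.05 and 0.51. At least 1.5-fold higher were 17 members, against 9.1% of all genes, and at least 2-fold higher were 4, against 3.05%. At least 1.5-fold lower were 3 members, against 22.4%, and at least 2-fold lower were 2, against 6.25%.

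**Figure D3:**
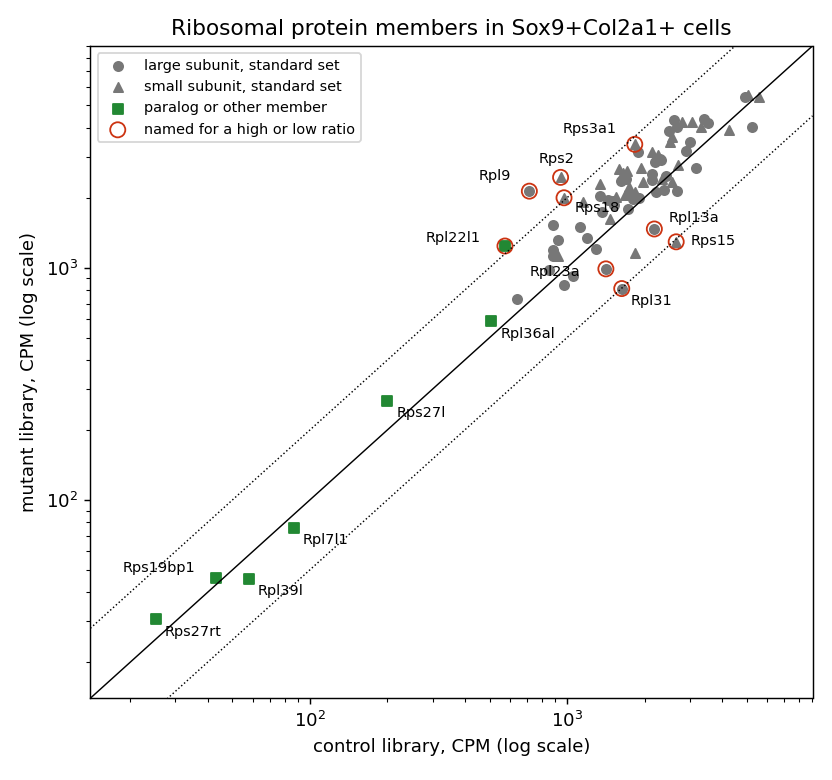
Level of each member detected in Sox9+Col2a1+ cells, in CPM on log axes, in the control (horizontal) and mutant library (vertical). The solid line marks equal levels and the dotted lines 2-fold differences. Most points lie slightly above the line, Rpl9, Rps2, Rpl22l1 and Rps18 lie above the upper dotted line, and Rps15 and Rpl31 on the lower one.

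Rpl9, a 60S protein gene, differed most. It was 713 CPM in control (691 to 736, exact Poisson interval on the summed UMIs) and 2134 CPM in mutant cells (2082 to 2186), a log2 ratio of 1.58. Rps2, a 40S protein near the messenger entry tunnel, was 943 CPM (918 to 970) and 2446 CPM (2391 to 2502), a log2 ratio of 1.37. These are the only members at least 1 log2 unit above the members' median, by 1.31 and 1.10. Rpl22l1, the paralog of Rpl22, was 573 CPM (553 to 594) and 1239 CPM (1199 to 1278), a log2 ratio of 1.11. Rps18, of the head of the 40S subunit, was 973 and 1998 CPM (log2 ratio 1.04), and Rps3a1 1833 and 3394 CPM (0.89).

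In the other direction, Rps15, a 40S protein next to the decoding site, was 2656 CPM in control (2613 to 2700) and 1291 CPM in mutant cells (1252 to 1332), a log2 ratio of -1.04. Rpl31, of the 60S subunit near the exit of the nascent chain, was 1631 CPM (1597 to 1666) and 812 CPM (781 to 845), a log2 ratio of -1.0. They lay 1.31 and 1.28 below the members' median and were the only members at least 1 unit below it. Also low were Rpl13a (2184 and 1467 CPM, log2 ratio -0.57) and Rpl23a (1415 and 987 CPM, -0.52). RPL13A has been described in interferon-dependent control of translation. The same subunit thus held members at both ends, with Rps2 and Rps18 high and Rps15 low.

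Members that other work or the study uses as references lay near the median of the members. Rpl7, the reference gene of the study's quantitative PCR, was 1119 CPM in control and 1488 CPM in mutant cells (log2 ratio 0.41). Rps25, which the study placed in its proliferative gene set, was 1465 and 1616 CPM (0.14), a list the study chose and no independent evidence of direction. Rps6, the substrate of S6 kinase, was 925 and 1120 CPM (0.27).

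The members that departed did so in the other cell types too. These comparisons all set the same 2 libraries against each other and are not independent. The log2 ratio of Rpl9 ranged from 1.22 in osteoblast-like to 1.90 in tendon-like cells and that of Rps2 from 1.09 in osteoblast-like to 1.78 in fibroblast-like and mural cells. Rps18 ranged from 0.72 to 1.40 and Rps3a1 from 0.52 to 1.14. Rps15 ranged from -1.09 in osteoblast-like to -0.74 in mural cells, and Rpl31 from -1.20 in osteoblast-like to -0.64 in fibroblast-like and synovial lining cells. In fibroblast-like cells, for example, Rps2 was 620 CPM in control and 2132 CPM in mutant cells, and Rps15 was 2048 and 1035 CPM. These cell types include ones that the aggrecan driver is not meant to target.

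**Figure D4:**
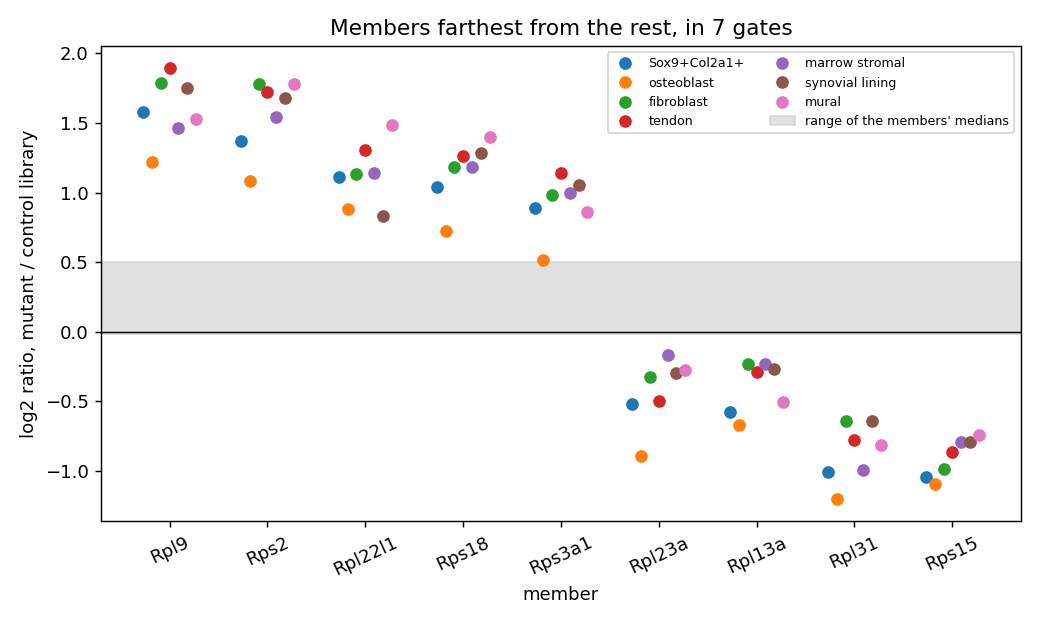
Log2 ratio of mutant to control CPM for the 5 members with the highest ratio and 4 of the 5 with the lowest in Sox9+Col2a1+ cells, each dot 1 of 7 gates. The grey band spans the median ratio of all members over the gates, from -0.01 in osteoblast-like to 0.50 in fibroblast-like cells. All dots of the 5 high members lie above 0.5 and all dots of the 4 low members below 0.

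Measured as a share of the members' own UMIs, 80 members reached 100 CPM in at least 1 gate. Their share varied between gates of a library by a median SD of 0.13 log2 units, and differed between the libraries by a median of 0.25 log2 units averaged over 7 gates. In every one of the 7 gates, Rps2, Rps18, Rpl9 and Rps3a1 held more than 0.5 log2 units more of the members' UMIs in the mutant library, and Rpl41, Rps15, Rpl31 and Rpl13a were among those that held more than 0.5 less.

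The share of members higher in the mutant library can be read against the same share of all genes in each gate. In osteoblast-like cells 40 of 84 members were higher, against 39.1% of all genes, so the members did not stand apart by this count. In tendon-like cells 72 of 84 members were higher (44.4% of all genes), in fibroblast-like cells 73 of 84 (41.2%) and in synovial lining cells 69 of 83 (45.9%). Marrow stromal cells had 68 of 83 higher (42.4%) and mural cells 62 of 83 (45.7%). The members' median log2 ratio was 0.46, 0.50, 0.47, 0.38 and 0.31 in these 5 gates and -0.01 in osteoblast-like cells.

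Erythroid cells of the control library differed from its Sox9+Col2a1+ cells in level more than in the mix of members. The members' median log2 ratio of erythroid to Sox9+Col2a1+ cells was 0.79, against 0.10 over all genes. Of 84 members, 81 were higher, where the median of all genes was also above 0. The share of all genes that were higher was not computed, so this count cannot be read against it. At least 2-fold higher were 23 of 84 members, near the 26.5% of all genes, so the members did not stand apart by this count. Rps2 was 943 CPM in Sox9+Col2a1+ and 2780 CPM in erythroid cells (log2 ratio 1.56), the largest ratio among members with a mean of at least 100 CPM. Rpl8 was 1725 and 4519 CPM (1.39) and Rpsa, the 40S protein also known as the laminin receptor, 2703 and 6929 CPM (1.36). The members that were not higher were Rpl39l, Rpl7l1 and Rpl22l1, all outside the standard set.

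Among the 80 members that reached 100 CPM in at least 1 gate, 3 paralogs had the most variable share between cell types. The other paralogs lay below this level and were not ranked. The 3 were among the lowest in level of those ranked, and the part of counting error in their SD was not tested. By the SD of their share over gates, the 8 most variable members were Rps27l (0.39), Rpl22l1 (0.29), Rpl36al (0.25), Rps2 (0.23), Rpl21 (0.22), Rplp0 (0.22), Rpl10 (0.22) and Rps26 (0.20), in log2 units, with 3 paralogs at the top. Only Rps27l in mural control cells passed 2-fold above its median over the gates of its library, by 1.07 log2 units, on about 43 UMIs.

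By CPM, Rpl22l1 was highest in Sox9+Col2a1+ cells within each library. In the control it stood at 573 CPM there, 548 in erythroid, 416 in osteoblast-like, 331 in synovial lining, 272 in fibroblast-like, 271 in marrow stromal, 261 in mural and 246 CPM in tendon-like cells. The intervals of these 2 highest gates overlapped (553 to 594 and 533 to 563 CPM). In the mutant library it was 1239 CPM in Sox9+Col2a1+ cells, 767 in osteoblast-like, 732 in mural and 590 to 609 CPM in the other 4 gates. The intervals of the 4 lowest gates of the control overlapped (218.7 to 276.8 CPM in tendon-like and 179 to 358 CPM in mural cells). Rpl22, which encodes the protein that RPL22L1 can replace in the ribosome, was 882 and 1187 CPM in Sox9+Col2a1+ cells, so that Rpl22l1 made up 39.4% of the UMIs of the pair in control and 51.1% in mutant cells. The share of the pair was higher in osteoblast-like cells, at 41.6% in control and 52.7% in mutant cells, and in mutant mural cells, at 52.6%. The lowest share of the pair was 23.1%, in control erythroid cells. Of the members' UMIs in the control, Rpl22l1 held 0.353% in Sox9+Col2a1+ and 0.359% in synovial lining cells, so its lead by CPM did not hold by this share.

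By CPM, Rps27l, a p53-responsive paralog of Rps27, was highest in erythroid cells (481 CPM) and, among the other control gates, in mural cells (316 CPM, 229 to 426). The rest of the control gates lay between 163 and 200 CPM, and the mutant gates between 229 and 317 CPM. Rps27 itself was 2130 CPM in control and 3141 CPM in mutant Sox9+Col2a1+ cells. Of the UMIs of this pair, Rps27l made up 14.5% in control erythroid and 20.4% in control mural cells. Rpl36al, the intronless copy of Rpl36a, was 507 and 588 CPM in Sox9+Col2a1+ cells, beside 1363 and 1734 CPM of Rpl36a, and 979 CPM in erythroid cells. Rpl36al made up 29.9% of the UMIs of its pair in control erythroid and 40.5% in control synovial lining cells.

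Rpl39l, known from the male germ line, was 57.8 CPM in control (51.6 to 64.6) and 45.8 CPM in mutant Sox9+Col2a1+ cells (38.6 to 54.1), beside 2492 and 3881 CPM of Rpl39. It was 42.4 CPM in control and 75.5 CPM in mutant marrow stromal cells. It was 0.3 CPM in control erythroid cells, on about 3 UMIs, and 3.3 CPM in control synovial lining cells, on about 4 UMIs.

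**Figure D5:**
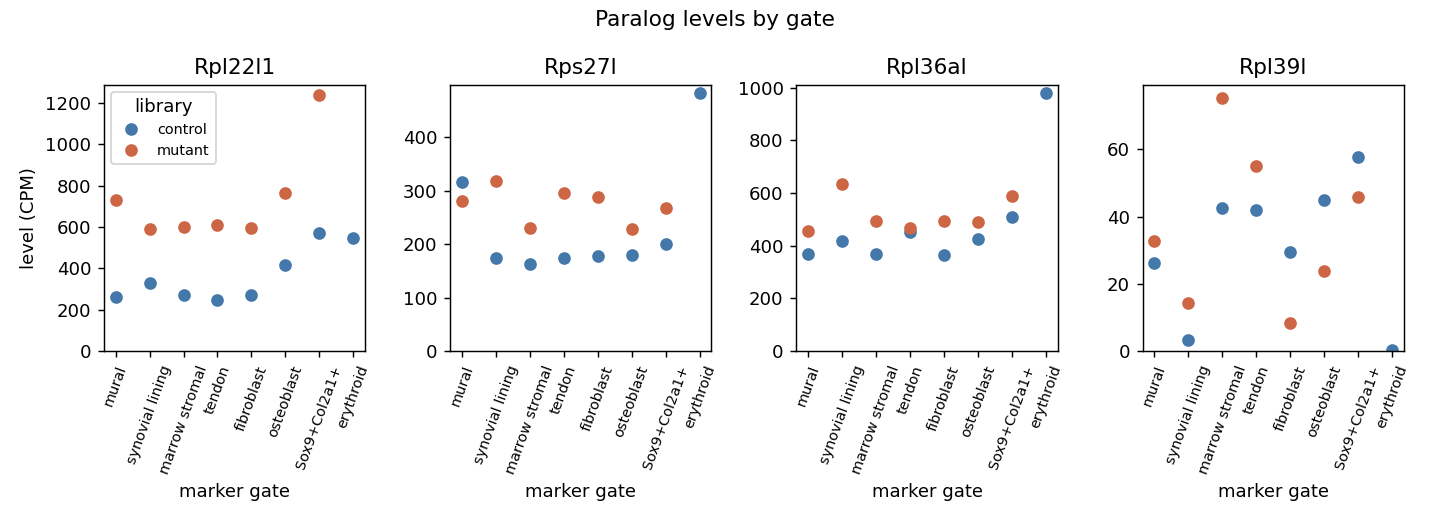
Level (CPM) of 4 paralogs by marker gate in the control and mutant library; erythroid cells are shown for the control only. Rpl22l1 is highest in Sox9+Col2a1+ cells in each library, Rps27l and Rpl36al in erythroid cells, and Rpl39l is near 0 in erythroid cells.

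The remaining members outside the standard set were low. In Sox9+Col2a1+ cells Rpl7l1, a factor of ribosome assembly, was 86.5 CPM in control and 75.7 CPM in mutant cells, Rps19bp1 43.2 and 46.3 CPM, and Rps27rt, a retrogene copy of Rps27, 25.2 and 30.6 CPM. Rpl3l, the muscle paralog of Rpl3, was detected in 4 of 4903 control and 4 of 1340 mutant cells and in none of the Sox9+Col2a1+ cells. Rpl10l, the germ line paralog of Rpl10, was found in 0 of 4903 control cells, which allows up to 0.0612% of cells with a UMI, and in 0 of 1340 mutant cells (0.224%). These limits apply to cells with a UMI at this depth and not to cells that express the gene. Their partners were well detected, with Rpl3 at 880 and 1523 CPM and Rpl10 at 918 and 1319 CPM. Rps4x, an X-linked 40S gene, was 1713 and 2607 CPM.

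Similar gene copies and the correction for ambient RNA both touch the level of single members. In the Gencode M21 annotation, 76 of the 86 members share at least 40 bases of the last 300 of their transcripts with an annotated pseudogene, 79 pseudogenes for Rps2, 26 for Rpl31, 14 for Rpl9, 8 for Rps18 and 5 for Rps15. The levels of single members are therefore uncertain where reads could be split between copies, and the part of copies in the differences was not tested. The authors removed ambient RNA with SoupX, and the deposited values still show it. Of the values above 0 of a member in control Sox9+Col2a1+ cells, a median of 10.1% lay within 0.1 of a whole number, against 52.2% in the mutant library. Every value farther than 0.1 from a whole number was then raised to the next one. The shares were 16.2% and 19.4% and the log2 ratios of Rps2 and Rps15 1.34 and -1.03. Larger subtractions cannot be read back from the values, and their part in the differences was not tested.

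Fau, translation factors and genes of ribosome assembly did not move as 1 group with the members in Sox9+Col2a1+ cells. Fau was 2570 CPM in control and 2461 CPM in mutant cells (log2 ratio -0.06). Of all 7682 genes, 35.2% were higher, and their median was -0.20. Of 15 translation factors and other genes of TOP messengers, 8 were higher and 7 lower. Their median of 0.01 lay above that of all genes and below the 0.27 of the members. The highest were Btf3, of the nascent polypeptide-associated complex (225 and 450 CPM, 1.0), and Tpt1 (3952 and 6017 CPM, 0.61), and the lowest Eif4b (130 and 94.3 CPM, -0.46) and Eef2, the translocation factor (1058 and 777 CPM, -0.45). The 5 host genes of small nucleolar RNAs, which guide the modification of ribosomal RNA, had a median of 0.58, with 4 higher. Of these, Snhg8 was 109 and 248 CPM (1.17) and Snhg6 52.8 and 100.4 CPM (0.92), while Snhg12 was 89.6 and 81.5 CPM (-0.13) and Snhg1 was 164 and 236 CPM (0.52).

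Over the non-cartilage gates, genes for ribosome biogenesis in the nucleolus had medians from -0.34 in osteoblast-like to 0.34 in marrow stromal cells. In Sox9+Col2a1+ cells their median was -0.34, beside -0.20 for all genes. Their summed level there was 3573 CPM in control and 3473 CPM in mutant cells. Of 19 of 20 genes with a mean of at least 10 CPM, 4 were higher and 15 lower, against 35.2% higher among all genes. Npm1 (801 and 1130 CPM, 0.50) and Nop10 (118 and 139 CPM, 0.24) were the highest and Nop58 (304 and 222 CPM, -0.45) and Nop56 (134 and 104 CPM, -0.36), core proteins of box C/D particles, the lowest among genes of at least 50 CPM. The mitochondrial ribosome, built in a different compartment, had 28 of 69 genes higher, against 35.2% of all genes. Its median of -0.09 lay above the -0.20 of all genes, so it did not stand lower than genes as a whole. Mrps6 (61.2 and 102 CPM, 0.73) and Mrpl20 (63.1 and 102 CPM, 0.69) stood at its upper end, and Mrpl42 (58.6 and 45.9 CPM, -0.35) and Mrpl52 (246 and 200 CPM, -0.30) at its lower end. Of the regulators, 5 of 6 reached 10 CPM, and 2 of these were higher, against 35.2% of all genes. Eif4ebp1, the repressor of cap-dependent translation that mTOR inactivates, was 72.8 and 112 CPM (0.61), and Myc 101 and 112 CPM (0.14). Rps6kb1, the S6 kinase, was 72.8 and 63.4 CPM (-0.20), and Larp1 81.6 and 74.8 CPM (-0.12).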

How the data were processed

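Groups came from the genotype labels, with 1 library each. The authors aligned reads with STAR 2.7.3a in Partek Flow on mm10 and a Gencode annotation, collapsed UMIs and removed ambient RNA with SoupX. Gene values were deposited as log2(CPM + 1) of each cell. The deposited total of a cell is an estimated count and not whole. The mitochondrial and ribosomal shares were deposited as a percent of that total, and the number of expressed genes as a score. A label column holds the authors' own selection. Estimated UMIs were recovered from the log2 values and totals, summed over the cells of a gate and divided by their sum, over 23576417 control and 7452649 mutant UMIs in all. Ratios are log2((mutant CPM + 1)/(control CPM + 1)), and members were counted at a mean of at least 10 CPM over the libraries. Gates compared held at least 20 cells in both libraries. Intervals used sums rounded to whole numbers.

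The members, gene lists and tests were chosen with earlier results of these data known. Named were the 5 highest and 5 lowest ratios and the 8 largest SDs over gates (at least 100 CPM), the 5 highest and 5 lowest levels of the standard set, all members outside that set with their partners, Rpl7, Rps25 and Rps6, and of each further list the 2 highest and 2 lowest ratios at a mean of at least 50 CPM. Rpl8, Rpsa and the members named by their ratio in erythroid cells were chosen after their values were seen. Some genes that meet these rules are not reported here.

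The ratio calculation was tested on simulated data for the Sox9+Col2a1+ comparison. Among 18422 genes, 200 of at least 100 CPM were changed 2-fold, and 100% were recovered in the right direction. The simulated counts held counting error alone, so lower genes and variation between cells or libraries were not covered. Doublets were called with Scrublet in scanpy 1.11.5, which marked 74 control and 2 mutant cells, kept in the main results. Other tools were numpy 2.4.6, scipy 1.17.1 and pandas 2.3.3. Alternatives were the weight of cells, the scaling, the definition of cells, cell filters, doublets, thinning, the pseudocount and the set of members. Those that raise values to whole numbers, restrict to the cartilage gate or restrict depth further (over 5000 UMIs; by gate) were chosen after seeing the data.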

Additional observations from a re-analysis of the deposited data

Results flagged for a closer look

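In osteoblast-like cells the summed ribosomal protein share had a log2 ratio of mutant to control of -0.0638, whereas it was above 0 in the other 6 gates, from 0.26 in Sox9+Col2a1+ to 0.46 in fibroblast-like cells. Among cells up to 5% mitochondrial counts the osteoblast value was 0.0615, and among cells without globin 0.00903, so its direction turned with either filter. This opposite direction is why the value stands here. The difference between the gates was not tested, since each genotype is 1 library.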

How the results depend on the processing

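The direction held under every alternative run for the summed share in Sox9+Col2a1+ cells (main log2 ratio of mutant to control 0.26) and for the median member ratio (main 0.27). The 2 values were, in that order, 0.316 and 0.330 per UMI outside the members, 0.278 and 0.292 outside globin and mitochondrial genes, 0.269 and 0.295 in cells holding 2 or more UMIs of both Sox9 and Col2a1, 0.280 and 0.296 in cells with Col2a1 and Acan, and 0.227 and 0.266 in the cells the authors marked, which are those without a globin UMI. They were 0.299756 and 0.319 up to 5% mitochondrial counts, 0.127 and 0.169 from 2000 to 10000 UMIs, 0.283 and 0.296 without doublets, 0.291 and 0.31 after thinning to 1000 UMIs per cell and 0.294 and 0.325 in the cartilage gate. The share ratio was 0.186 above 5000 UMIs and 0.251 by the deposited percent column. The median member ratio was 0.312 with equal weight of cells, and the mean of the members was 0.261. These values moved by more than the counting error of the share ratio, whose interval was 0.254 to 0.266. The range from 2000 to 10000 UMIs moved the share ratio by over 1.5 times, and 59 instead of 66 members were then higher. Within the depth ranges up to 10000 UMIs, the median per-cell share of Sox9+Col2a1+ cells was lower in the mutant library. Between 6 and 7 of 7 gates stood higher in the mutant library under each alternative. By the rule for departing members, 5 passed by their share of the members' UMIs and 77 by CPM over all genes, most of them in control erythroid cells. After thinning 6 passed, without Rps2, and 7 by the mean of per-cell shares. Depth limits the low paralogs: Rpl39l rested on under 10 UMIs in the mural and synovial lining gates of both libraries. No paired analysis was possible because each genotype is 1 library and no test was made.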
